A study of Homo sapiens with 4 samples.

Results

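Regions of open chromatin that were a single peak in some ATAC-seq libraries and 2 or more separate peaks in others were described in HCT116, an established cell line from a human colorectal cancer. Peaks of the 4 libraries that shared at least 1 bp were joined into 78788 regions on hg19, of which 40447 held a peak in every library and are called common regions. A common region was taken as split when at least 1 library listed 2 or more peaks inside it. This rule found 1716 regions, or 4.24% of the common regions. The regions were chosen by the number of peaks in each library, so that number is described here and not tested. Each library came from 50000 wild-type (WT) HCT116 cells. The cells had received tunicamycin (Tm) at 0.5 µg/ml for 6 h or 0.1% DMSO for the same time, with 2 libraries per treatment that the series describes as biological replicates. Tm stops cells from attaching N-linked sugars to new proteins, which causes misfolded proteins to build up in the endoplasmic reticulum. DMSO was the vehicle control.

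ATAC-seq uses a transposase that cuts DNA wherever it is not held by nucleosomes, and a peak is a stretch with more cuts than its surroundings. Active promoters and enhancers are usually open around the sites where transcription factors bind, and are flanked by positioned nucleosomes. A nucleosome wraps a little under 150 bp of DNA, so 2 open stretches on either side of a nucleosome can appear as 2 peaks with a gap between them. A peak caller can also divide 1 open stretch where the signal dips briefly below its threshold. Both give the same entries in a peak list, and they cannot be told apart here.

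The lists held 56581 and 56566 peaks for DMSO replicates 1 and 2, and 58467 and 62526 for Tm replicates 1 and 2. No listed peak was narrower than 100 bp. Neighbouring peaks of 1 list were never closer than 54 bp, or 53 bp in DMSO replicate 2, so a shorter dip never appears as a gap. Strength is given as reads at the summit. This pileup was recovered from the authors' fold and p-value of each peak, and its median was 15 reads per peak in 3 libraries and 16 in Tm replicate 2.

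The number of split regions overlapped between Tm and DMSO. DMSO replicate 1 split 745 of the common regions and DMSO replicate 2 split 722. Tm replicate 1 split 775, the highest number, and Tm replicate 2 split 685, the lowest. The Tm libraries thus lay on either side of both DMSO libraries and the groups overlapped. The mean was 734 ± 16.3 (SD, n = 2) after DMSO and 730 ± 63.6 (SD, n = 2) after Tm, a difference of -3.5 regions. As a share of the common regions, splitting ran from 1.69% in Tm replicate 2 (Wilson 95% interval 1.57% to 1.82%) to 1.92% in Tm replicate 1 (1.79% to 2.05%). These intervals cover counting error only. Tm replicate 2 also had the longest list and the most reads in these regions. Its median best summit in them carried 24 reads, against 21 in each of the other 3 libraries, and the part of this in its low count of splits was not tested.

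Most splits were into 2 peaks and most were not shared by all libraries. In 1666 regions no library listed more than 2 peaks, in 49 the highest number was 3, and in 1 it was 4. A single library split 893 regions (52.0%), 2 libraries split 469 (27.3%), 3 split 320 (18.6%) and all 4 split 34 (1.98%). The regions split by 1 library numbered 232 for DMSO replicate 1, 226 for DMSO replicate 2, 233 for Tm replicate 1 and 202 for Tm replicate 2. About the same fraction of each library's splits, 29.5% to 31.3%, was its own alone.

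Neither treatment had a set of split regions that stood apart in number. Both Tm libraries and neither DMSO library split 88 regions, and both DMSO libraries and neither Tm library split 81. The 4 patterns that pair a DMSO with a Tm library held 65 to 93 regions (mean 75 ± 12.8, SD, n = 4 patterns), a range that takes in both numbers. The ratio of 88 to 81 was 1.09, and Tm made up 52.1% of the 169 together (Wilson 95% interval 44.6% to 59.5%, counting error only). Counting libraries, more Tm than DMSO libraries split 684 regions, fewer did so in 698, and the number was equal in 334. With lists cut to equal length the ratio was 0.787, from 70 and 89 regions, and Tm replicate 2 then split 558 regions.

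**Figure D1:**
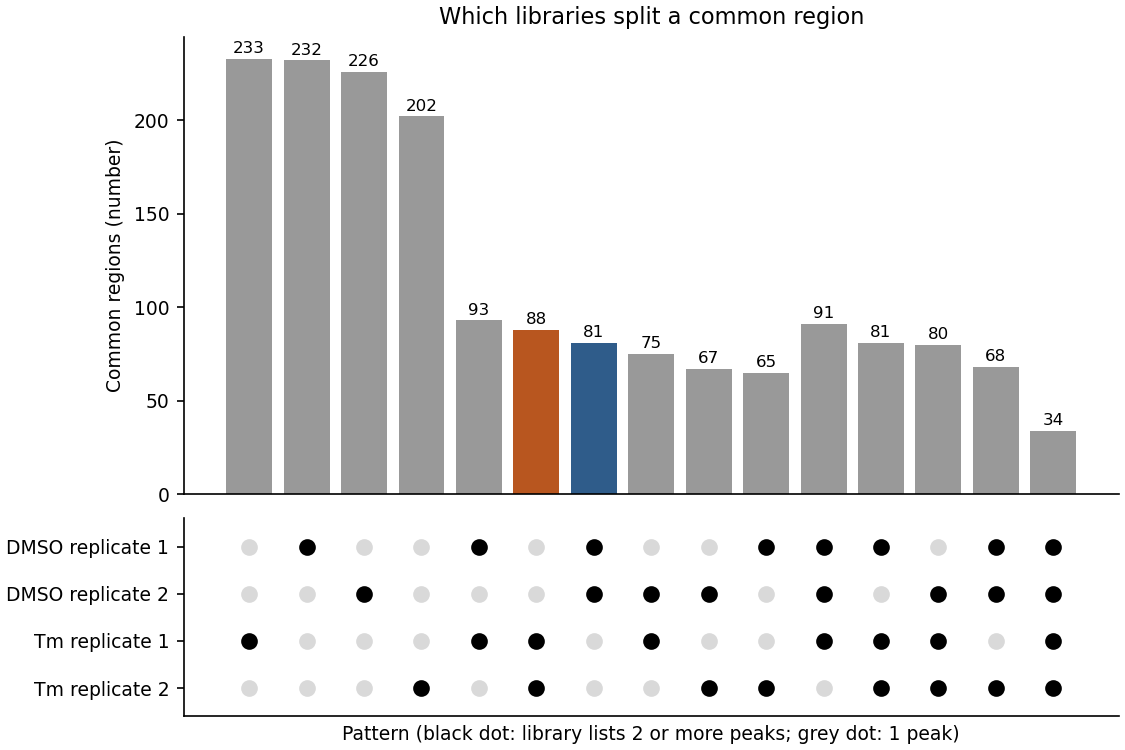
Number of common regions (bars) split by each combination of libraries (black dots below the bar mark the libraries that listed 2 or more peaks). The orange bar (88, both Tm libraries only) and the blue bar (81, both DMSO libraries only) lie within the range of the 4 grey patterns with 1 library of each group, 65 to 93.

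Splits recurred between libraries, within a treatment and across treatments. Of the 745 regions split in DMSO replicate 1, 36.8% were split in DMSO replicate 2, 40.1% in Tm replicate 1 and 33.3% in Tm replicate 2. Of the 685 split in Tm replicate 2, 41.3% were split in Tm replicate 1, 36.2% in DMSO replicate 1 and 36.4% in DMSO replicate 2. Over all 12 ordered pairs of libraries this share ran from 33.3% to 41.3%, and the pairs of 1 treatment (36.5% to 41.3%) overlapped with the pairs across treatments (33.3% to 40.1%). Each library split only 1.69% to 1.92% of all common regions. The libraries share these regions and their spans, so the pairs are a description.

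Regions split in a library of 1 treatment and not in a library of the other were then followed in the remaining 2 libraries. Each DMSO library was set against each Tm library in both directions, which gives 8 choices that share libraries and regions. Of 436 regions split in Tm replicate 2 and not in DMSO replicate 2, 169 (38.8%) were split in Tm replicate 1 and 146 (33.5%) in DMSO replicate 1. Of 497 split in DMSO replicate 1 and not in Tm replicate 2, 172 (34.6%) were split in DMSO replicate 2 and 184 (37.0%) in Tm replicate 1. These were the extremes: the share in the library of the same treatment minus that in the other ran from -2.41 to 5.28 percentage points. It was above 0 in 6 choices and below 0 in 2, and both of the latter compared libraries of unequal replicate number. The libraries also differed in how many regions they split in all, from 685 to 775, and the shares were not corrected for this. The Wilson 95% intervals of the 2 shares overlapped in all 8. Regions are not replicates, so no test was made over them.

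**Figure D2:**
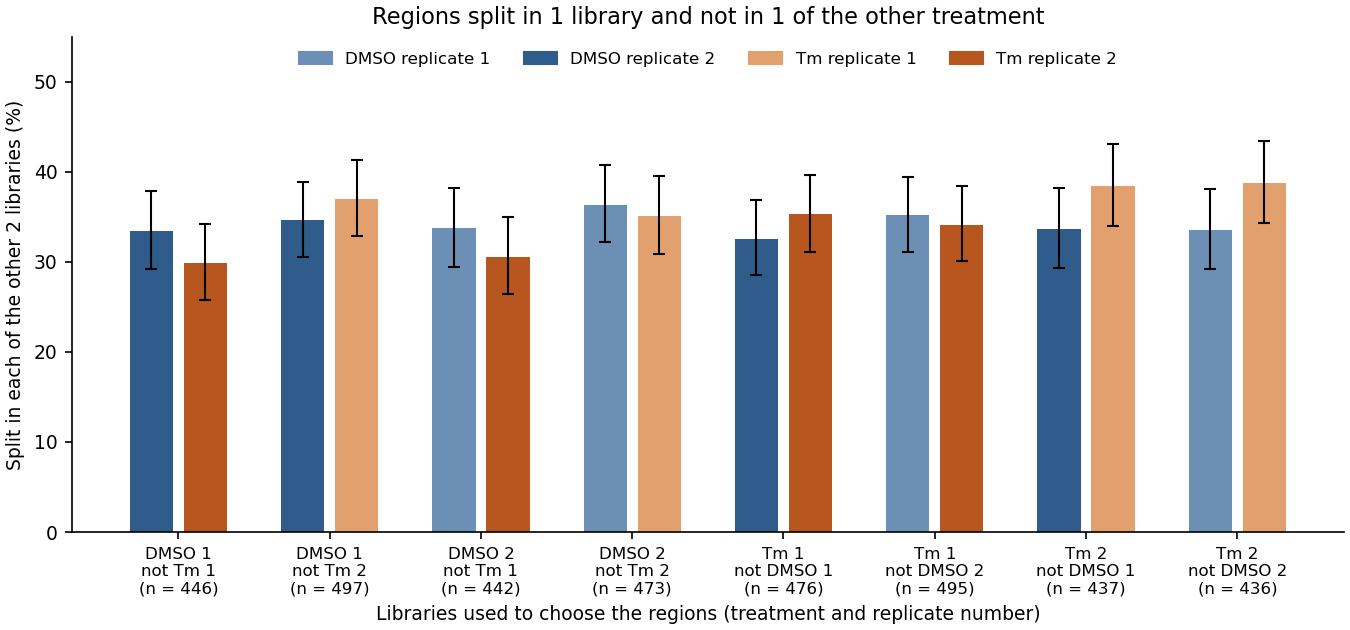
Share (%) of regions split in each of the remaining 2 libraries, DMSO (blue) and Tm (orange), for regions split in the library named first and not in the one named second; error bars are Wilson 95% intervals for counting error. The 16 shares lie between 29.8% and 38.8%, and the 2 bars of each choice overlap in their intervals.

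Gaps were short and of like width in all libraries. The 1716 regions held 2985 gaps, a gap being the bases from the end of a peak to the start of the next peak of the same library and region. The median gap was 80 bp in DMSO replicate 1, 79.5 bp in DMSO replicate 2, 81 bp in Tm replicate 1 and 76.5 bp in Tm replicate 2. The mean of these medians was 79.8 ± 0.354 bp after DMSO and 78.8 ± 3.18 bp after Tm (SD, n = 2 each), so they differed by less than the spread between the Tm replicates. Over all gaps the middle 50% ran from 65 to 104 bp, the narrowest was 53 bp and the widest 654 bp. Gaps piled up at the lower limit, with 691 (23.1%) no wider than 63 bp. A gap of at least 150 bp, as long as the DNA of a nucleosome, was found in 240 cases (8.04%). What was piled up is not known, so a gap between listed peaks need not be as wide as the closed DNA there. A narrower gap therefore does not show that a nucleosome could not fit. By library, gaps of at least 150 bp made up 8.40% and 9.15% after DMSO and 8.58% and 5.87% after Tm. The groups overlapped at this limit, and Tm replicate 2 stood below the other 3. The limit was set after the values were seen, and the order of the groups depends on it. A limit of 147 bp, used first, gave 9.45% and 9.84% after DMSO and 8.95% and 6.30% after Tm, with both Tm libraries below both DMSO libraries. Of the 41 limits from 130 to 170 bp, 13 gave that order, the last of them at 149 bp, and the groups overlapped at the other 28. Tm replicate 2 was the lowest library at all 41. The mean after Tm was lower than after DMSO by 2.25 percentage points at 140 bp, by 1.55 at 150 bp and by 0.668 at 160 bp, and higher by 0.138 at 170 bp. With 2 libraries against 2, the smallest p that an exact two-sided permutation test allows for any such value is 0.333.

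**Figure D3:**
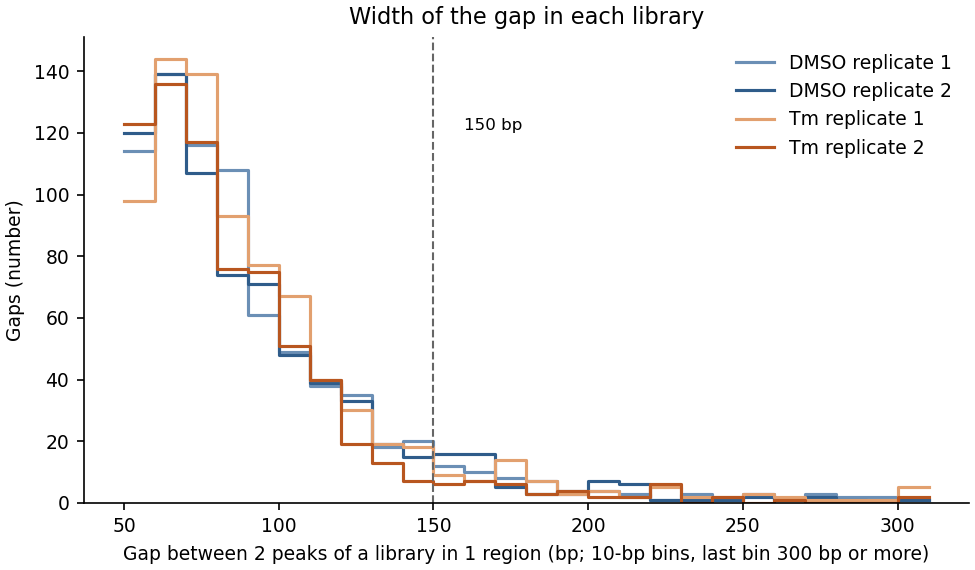
Number of gaps in 10-bp bins of gap width for each library; the dashed line marks 150 bp. In all 4 libraries most gaps lie under 100 bp (69.5% to 75.5%), next to the lower limit of 53 or 54 bp.

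Gaps were wider in regions split by more libraries. The median gap was 71 bp where 1 library split the region, 80 bp with 2 libraries, 88 bp with 3 and 91.5 bp with all 4. Gaps of at least 150 bp made up 3.45%, 6.96%, 11.1% and 22% of these sets. The joined region was longer in the same order, with median spans of 453, 485, 559.5 and 717 bp. The best summit also carried more reads in that order (mean of 4 libraries), with medians of 20.5, 21.2, 24.2 and 27.6 reads. Among gaps of regions split once, 32.7% were no wider than 63 bp, and in 57.1% the narrower flanking peak was under 130 bp wide, close to the limit of the lists.

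Where 2 libraries both split a region, their gaps mostly overlapped. A gap needs a listed peak of at least 100 bp on either side, so it can lie only in part of a region. The overlap expected from this alone was not worked out. There were 1633 cases in which 2 libraries split 1 region, and in 1474 of them (90.3%) the gaps overlapped. The share was 93.1% between the DMSO libraries, 89.0% between the Tm libraries and 88.0% to 93.0% across treatments. The centres of overlapping gaps lay a median of 16.5 bp apart, 16 bp within a treatment and 17 bp across treatments, and the gaps shared a median of 67 bp. Within and across treatments, the medians of this distance differed by 1 bp.

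A library that did not split a region could cover the gap of another with a single peak or list a peak that covered it only in part or not at all. Joining by overlap keeps a gap inside a region only where peaks of other libraries cover it, so these shares are largely set by the rule. Of the 5579 combinations of a gap with a library that did not split that region, the whole gap lay under a single peak in 76.8%. In the other 23.2% that library's peak did not cover the whole gap. The share bridged was 71.2% where 1 library split the region, 75.2% with 2 and 95.3% with 3, where few other libraries are left to cover the gap. It was 73.7% for regions split by both Tm libraries only and 78.4% for regions split by both DMSO libraries only. Over all gaps, single peaks of Tm replicate 2 covered 57.3% to 59.2% of each other library's gaps. For the other libraries this was 47.0% to 53.8%. The part of this in the difference of the 2 shares was not tested. A single peak over the gap rarely had its summit there. Over all bridging peaks the summit lay in the gap in 110 of 4655 cases (2.36%), left of it in 50.4% and right of it in 47.2%. When it lay beside the gap and the split peaks differed in reads, it fell on the side of the stronger split peak in 80.8% of 4369 cases. Only 58 gaps (1.94%) were covered whole by no single peak of another library. There, peaks of different libraries that overlapped like tiles joined the region.

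The peaks on either side of a gap mostly differed by less than 2 times in reads. The stronger of the 2 peaks beside a gap had a median of 22 reads at its summit and the weaker 13, with a median ratio of 1.57. The ratio is at least 1 by its definition, and it was 2 or more in 32.1% of gaps. The 4 libraries were alike: the weaker peak had a median of 13 reads in 3 libraries and 14 in Tm replicate 2, and the median ratio ran from 1.54 to 1.60. The stronger peak lay to the left in 1428 gaps and to the right in 1436, with 121 ties. Left and right follow the direction of the chromosome and not of a gene. The wider peak had a median of 223 bp and the narrower 135 bp. Summits stood a median of 270 bp apart, with the middle 50% from 218 to 333 bp. By library this distance was 276 and 269 bp after DMSO and 266 and 270 bp after Tm.

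Splitting was concentrated in long common regions. Split regions spanned a median of 483.5 bp (middle 50% from 417 to 566 bp), against 216 bp (178 to 276 bp) for the 38731 common regions with a single peak in every library. The shortest split region spanned 271 bp, since 2 peaks and a gap need room, so span is tied to the rule. Below 300 bp, 19 of 31287 common regions (0.0607%) were split. The share was 5.80% from 300 to under 400 bp, 26.4% from 400 to under 500 bp, 46.4% from 500 to under 600 bp and 60.4% from 600 to under 700 bp. From 700 bp upward, 112 of 154 regions (72.7%) were split. Some long regions were never split, and the longest of these spanned 1201 bp. The 4 libraries had like shares at each span: from 500 to under 600 bp, the DMSO libraries split 21.9% and 22.2% and the Tm libraries 22.9% and 19.8%.

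At like span, split regions carried fewer reads. From 400 to under 500 bp the best summit had a median of 19.8 reads in split regions and 30.8 in single-peak regions, as a mean over the 4 libraries. From 500 to under 600 bp the medians were 24 and 35 reads. Among all common regions of 400 to under 600 bp, 215 of 396 (54.3%) were split where the summit had fewer than 15 reads. The share was 50.3% from 15 to 20 reads, 34.6% from 20 to 30, 25.6% from 30 to 40 and 13.0% from 40 upward. Over all spans, split and single-peak regions ranked alike in their lists, at a median percentile of 61.6 and 62.5.

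**Figure D4:**
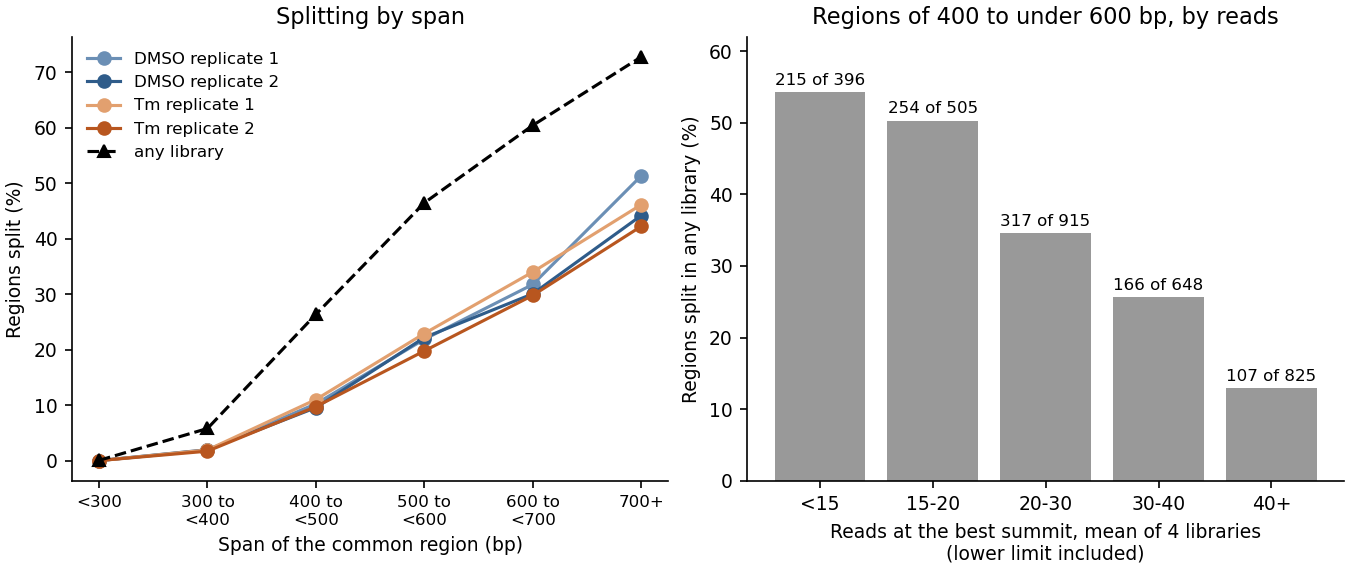
Left, share (%) of common regions split in each library and in any library (dashed), by span of the region in bp; right, share split in any library among regions of 400 to under 600 bp, by reads at the best summit (mean of 4 libraries). The share split is higher at longer spans in every library, reaching 42.2% to 51.3% from 700 bp upward, and lower with more reads, from 54.3% to 13.0%.

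Within a region, the libraries that split it ranked neither mostly lower nor mostly higher than the others. In the 1682 regions that some libraries split and others did not, each library's best peak was ranked by q-value over all common regions. The splitting libraries had the lower mean rank in 850 regions (50.5%) and the higher in 832. The median difference was -0.131 percentile points. By library, the best summit of the regions it split and of those it did not had medians of 22 and 19 reads in DMSO replicate 1 and 22 and 21 in DMSO replicate 2. In Tm replicate 1 they were 22 and 20 reads, and in Tm replicate 2 23 and 24. In each library the regions it split spanned more, with medians of 507 to 512 bp against 465 to 471 bp.

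In the 34 regions split in every library the gaps cannot all fall at 1 place. Joining the lists ends a region at any base that no library covers, so no base can lie in a gap of all 4 libraries. Where each library has 1 gap, the gaps therefore cannot overlap in all 6 pairs of libraries. In 1 of the 34 the gaps did overlap in all 6 pairs, which takes a library with more than 1 gap. The highest-ranked, on chromosome 8 at 71314251 to 71315146, had a strong left peak with 52, 67, 54 and 74 reads in DMSO replicates 1 and 2 and Tm replicates 1 and 2. Its right peak had 29, 24, 29 and 18 reads. The gap measured 97, 91 and 85 bp in the first 3 libraries at overlapping places. In Tm replicate 2 it was 263 bp and lay further right, and its left peak ran across the place where the others were divided. On chromosome 17 at 74349895 to 74350410 the left peak had 23, 36, 43 and 49 reads in that order of libraries, and the right peak stayed at 9, 9, 10 and 9 reads. Both Tm values of the left peak were above both DMSO values, while the right peak did not differ by more than 1 read. On chromosome 14 at 21924153 to 21924756 the gaps were 86, 64, 75 and 72 bp, with left peaks of 33, 33, 35 and 32 reads and right peaks of 13, 9, 13 and 27. Each library had 1 gap in both of these regions, and some pairs of gaps did not overlap, as the joining requires.

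The other 3 named regions split in every library had more than 1 place of division or gaps of very unequal width. On chromosome 5 at 96270481 to 96271141, DMSO replicate 1 was divided on the right (67 bp), and DMSO replicate 2 and Tm replicate 2 on the left (71 and 95 bp). Tm replicate 1 was divided at both places (123 and 75 bp) and so listed 3 peaks. On chromosome 20 at 33264371 to 33265145 the gaps of both DMSO libraries were wide, at 283 and 229 bp. Tm replicate 2 had a gap of 174 bp there, and Tm replicate 1 listed a small peak of 10 reads between the outer peaks, with gaps of 81 and 76 bp beside it. On chromosome 1 at 110881346 to 110882115 the gaps were 128, 310, 85 and 75 bp in DMSO replicates 1 and 2 and Tm replicates 1 and 2.

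**Figure D5:**
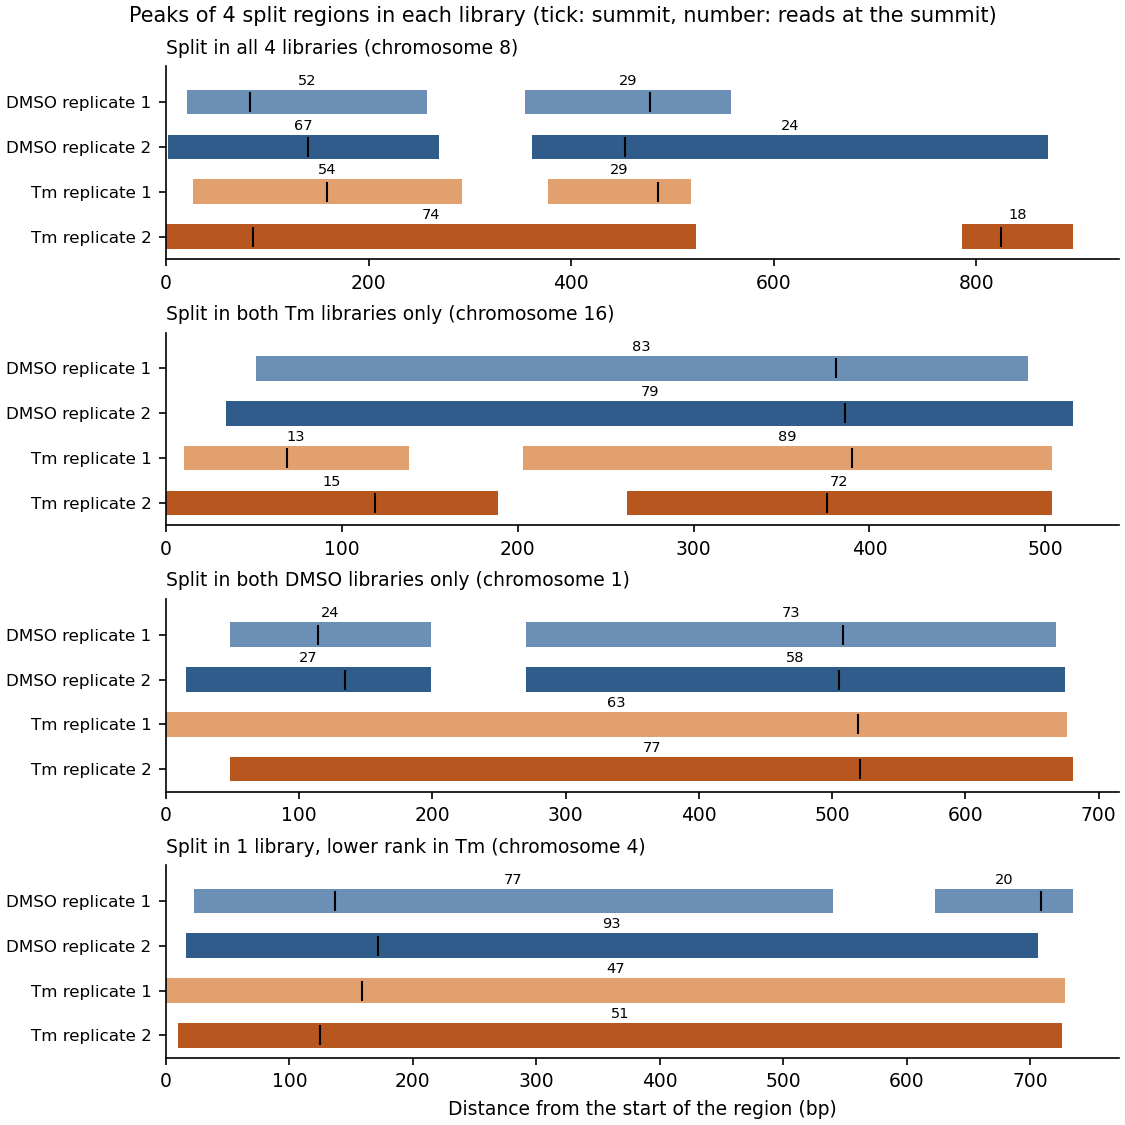
Peaks (bars) of the 4 libraries in 4 split regions, drawn in bp from the start of the region; ticks mark summits and numbers give the reads at the summit. From top to bottom: the highest-ranked region split in all 4 libraries, in both Tm libraries only and in both DMSO libraries only, and the split region on chromosome 4 with 77 and 93 reads after DMSO and 47 and 51 after Tm.

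The 88 regions split in both Tm libraries alone had a stronger peak of a median of 22 reads beside a weaker one of 12. They spanned a median of 479.5 bp, lay on 20 chromosomes and had a median gap of 81 bp. The highest-ranked, on chromosome 16 at 4852601 to 4853116, was 1 peak after DMSO, with 83 reads in replicate 1 and 79 in replicate 2. After Tm the main peak had 89 and 72 reads, and a left peak of 13 and 15 reads stood apart by 65 and 73 bp. The main summit of the 4 libraries overlapped between treatments. On chromosome 5 at 168006285 to 168006958, DMSO had 1 peak of 58 and 79 reads, and Tm had peaks of 25 and 72 reads in replicate 1 and 37 and 85 in replicate 2. Both gaps there were 57 bp, near the limit of the lists, and did not overlap each other. On chromosome 3 at 98241385 to 98242041, Tm gaps of 83 and 71 bp divided what was a peak of 53 and 55 reads after DMSO, with main peaks of 61 and 63 reads after Tm.

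The next 3 of these regions differed in how even the parts were. On chromosome 21 at 47878425 to 47879079, both Tm libraries had a right peak, of 12 and 17 reads, beyond a gap of 71 and 91 bp. The DMSO peaks, of 45 and 49 reads, ended at 47878800 and 47878836, and only the Tm libraries listed bases beyond, up to 47879079. On chromosome 14 at 62161863 to 62162372 the Tm peaks were nearly equal, with 54 and 51 reads in replicate 1 and 57 and 50 in replicate 2, on either side of gaps of 65 and 61 bp. On chromosome 12 at 122277327 to 122277736 the gaps were 74 and 116 bp. There DMSO replicate 2 listed a single peak across both, while the peak of DMSO replicate 1 ended at 122277540.

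The 81 regions split in both DMSO libraries alone had medians of 20 and 13 reads for the stronger and the weaker peak. They spanned a median of 491 bp, lay on 23 chromosomes and had a median gap of 81 bp. On chromosome 1 at 161135682 to 161136362 both DMSO libraries had the same gap of 71 bp, from 161135881 to 161135951, between left peaks of 24 and 27 reads and right peaks of 73 and 58. Both Tm libraries listed a single peak, of 63 and 77 reads, across it. On chromosome 8 at 77912207 to 77913011 the DMSO gaps were 93 and 85 bp, with a right peak of 13 and 18 reads. On chromosome 1 at 31190878 to 31191241 the DMSO libraries had 2 narrow peaks of 132 to 144 bp on either side of gaps of 76 and 89 bp. The Tm libraries had 1 peak of 352 and 353 bp with 56 and 52 reads.

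Of the other 3 regions of this kind, the one on chromosome 3 at 49756817 to 49757278 had gaps of 84 and 59 bp between peaks of 54 and 41 reads in DMSO replicate 1 and 54 and 33 in DMSO replicate 2. The single Tm peak there carried 67 and 74 reads, above both DMSO values, and its −log10 q was also above that of both stronger DMSO peaks. By fold over the local background the groups overlapped. Tm replicate 1 then lay below both DMSO libraries and Tm replicate 2 above both. On chromosome 19 at 1812423 to 1812928 the gaps were 79 and 98 bp, and Tm replicate 1 listed only the right peak, with 61 reads, so that only Tm replicate 2 bridged the gap. On chromosome 15 at 49338557 to 49338975 small left peaks of 12 and 10 reads lay beyond gaps of 56 and 61 bp after DMSO, and the Tm peaks of 35 and 53 reads ran across.

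The extremes of peak number and gap width differed from library to library. The region with 4 peaks, on chromosome 5 at 127418700 to 127419718, was divided so only in DMSO replicate 2, by gaps of 67, 62 and 55 bp. DMSO replicate 1 and Tm replicate 2 listed 2 peaks there, with gaps close to 150 bp, and Tm replicate 1 a single peak of 775 bp. On chromosome 17 at 72869039 to 72869637 DMSO replicate 2 listed 3 peaks of 15, 60 and 35 reads, and Tm replicate 1 listed 2. On chromosome 8 at 104426982 to 104427708 only Tm replicate 2 was divided, into peaks of 28, 47 and 25 reads. The widest gap, 654 bp on chromosome 17 at 79825655 to 79826758, belonged to DMSO replicate 1, and Tm replicate 2 covered it with a peak of 1090 bp. DMSO replicate 2 listed only the right end of that region, and Tm replicate 1 had a gap of 212 bp.

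Gaps of 396 and 372 bp came next in width. The first was in Tm replicate 2 on chromosome 17 at 42620549 to 42621269, where DMSO replicate 1 listed 3 peaks and Tm replicate 1 a single one of 613 bp. The second was in Tm replicate 1 on chromosome 1 at 85930300 to 85931177, a weak region whose best summit had 12 and 8 reads after DMSO and 28 and 19 after Tm. Gaps of 53 bp, the narrowest, were all in DMSO replicate 2. They included one in the region on chromosome 17 with 3 peaks, one on chromosome 18 at 9102421 to 9102793 and one on chromosome 16 at 30661828 to 30662174, each of them under a single peak of every other library.

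Strength within the split regions was then compared between treatments, a measure the rule did not use. Each common region was ranked in each library by its best q-value, ranks were turned into normal scores, and Tm and DMSO were compared with limma over all 40447 common regions. At a Benjamini-Hochberg adjusted p under 0.05, 2 of the 1716 split regions changed, beside 0.0519% of all common regions. Of these, 1 was higher after Tm, beside 0.0346% of all common regions, and 1 was lower, beside 0.0173%. At an unadjusted p under 0.05 there were 112 split regions (6.53%), against 7.33% of all common regions. Both Tm ranks lay above both DMSO ranks in 288 split regions (16.8%, against 18% of all common regions) and below them in 373 (21.7%, against 18.3%). The median score difference was -0.05 in split regions and 0.00044 over all common regions. The median percentile rank of the split regions was 49.4 and 50.4 in DMSO replicates 1 and 2 and 46.9 and 47.3 in Tm replicates 1 and 2. Both Tm medians were thus below both DMSO medians, by a few percentile points.

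The region that fell, on chromosome 4 at 775543 to 776277, was divided only in DMSO replicate 1, where a right peak of 20 reads stood apart by 83 bp. Its best summit had 77 and 93 reads in DMSO replicates 1 and 2 and 47 and 51 reads in Tm replicates 1 and 2. The groups did not overlap, and the percentile rank went from 99.3 and 99.7 to 88.1 and 86.0. The score difference was -1.47 ± 0.254 (SE, limma adjusted p = 0.00252). The limma adjusted p was 0.0703 without DMSO replicate 2, 0.473 with a single prior spread for all regions, 0.241 with log2 fold in place of the rank and 0.331 with the mean −log10 q of the region's peaks in place of the best (score difference -0.957). Both Tm libraries and DMSO replicate 2 listed a single peak over the gap. The mean takes in the weaker peak of DMSO replicate 1, with a −log10 q of 10.3 beside 83.1 for the stronger. It thus depends on the number of peaks, which the rule used, and is no separate check.

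The region that rose, on chromosome 11 at 15074711 to 15075289, had best summits of 4 and 8 reads after DMSO and 24 and 24 after Tm. Its percentile ranks were 0.543 and 8.81 after DMSO and 71.5 and 57.7 after Tm, with no overlap. The score difference was 2.33 ± 0.473 (SE, limma adjusted p = 0.0179). DMSO replicate 2 and Tm replicate 1 had gaps of 104 and 87 bp that overlapped, and Tm replicate 2 listed 1 peak of 568 bp. DMSO replicate 1 listed a single peak of 111 bp on the right. Its 4 reads, near the lowest of its list (3 reads), thus stand on the right, and the other best summits on the left. The right peaks of DMSO replicate 2 and Tm replicate 1 had 7 and 13 reads. The limma adjusted p was 0.406 with a single prior spread, 0.147 with log2 fold and 0.0745 with the mean −log10 q. That mean depends on the number of peaks. The score difference was 1.66 without DMSO replicate 1, 2.84 without DMSO replicate 2 and 2.09 without Tm replicate 1. Without Tm replicate 2 no peak joined the left and right parts. Only the right part, at 15075057 to 15075289, was then a common region, with a score difference of 1.33. Each of these fits leaves 1 library in a group.

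Split regions were found on all 23 chromosomes listed. They made up 2.93% of the common regions of chromosome 20 (Wilson 95% interval 2.12% to 4.05%), the lowest share, and 5.41% of those of chromosome 4 (4.43% to 6.59%), the highest. Over all common regions the share was 4.24%. These 2 were picked as the extremes of 23, and their intervals cover counting error only. The shares were not matched for span, so a difference between chromosomes was not tested. The nearest common region lay a median of 11098.5 bp away for split and 9709 bp for single-peak regions, and it was within 1000 bp for 19.7% and 18.1%.

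Just outside the rule were 112 regions that some library split but that were not listed in all 4, of which 94 were listed in 3. A further 484 pairs of neighbouring common regions lay no more than 80 bp apart, the median gap, with no peak of any library joining them.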

How the data were processed

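Per the submitters' processing notes, the tools included Bowtie2 2.3.5.1, MACS2 2.2.7.1 and Picard 2.18.23, with Trim Galore, SAMtools and deepTools, and the build was hg19. Order and settings of the tools are not stated there. Each library has its own deposited list of peaks, with positions, a score, a fold (a ratio of summit pileup to local background), −log10 p and q values and the summit. A whole-number summit pileup that matched the deposited −log10 p-value within 0.001 was recovered for 100% of peaks. What was piled up is not known, and read totals were not used.

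Lists were joined at 1 bp or more of shared bases (Python 3.11.15, pandas 2.3.3, numpy 2.4.6, scipy 1.17.1), and libraries were grouped by title. Ranks were compared with limma 3.58.1 (R 4.3.3, prior spread following the mean score). If replicates were not separate cultures, its p-values measure technical spread only. Both steps were run on simulated data. The simulated ranks had the same noise spread in every region. That run therefore does not show how a prior spread following the mean score behaves in the real lists. The regions, the named-region rule and the lists were chosen with earlier results of these data known. The limits that describe gaps, peak widths, spans and reads (such as 63, 130 and 150 bp) were set after the values had been seen, and the 150 bp limit replaced one of 147 bp. Named were the 6 highest-ranked regions split in all 4 libraries, in both Tm or in both DMSO libraries only, 3 each with the most peaks, the widest and the narrowest gap, and split regions called by limma. Genes and sequences were not assigned, because the annotation at hand is on another build. The line was therefore not checked against marker genes.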

Additional observations from a re-analysis of the deposited data

How the results depend on the processing

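The difference in the number of split regions between Tm and DMSO moved by less than the replicate spread in 8 of 9 alternatives. With lists cut to equal length it was -82 regions, and leaving out single libraries gave -57 to 37. The number of split regions was 1005 with peaks of at least 130 bp, and 737 at a −log10 q of at least 10. The median gap was 78 bp at both of these settings and without any 1 library. The ratio of regions split by both Tm to those split by both DMSO libraries only was 0.787 with lists of equal length. Leaving out a library gave 0.495 to 2.23, but the group with 1 library left then needs 1 split and the other 2. Of the rank comparison, limma called 1 split region at a −log10 q of at least 5 and at least 10, and 1 without each library. The chromosome 4 region was called at both q limits, without Tm replicate 1 and without Tm replicate 2, and the chromosome 11 region without DMSO replicate 2. Without DMSO replicate 1 the call was another region (chromosome 9, 127997113 to 127997974). Limma called 2 split regions when narrow peaks, under 130 bp, were dropped, and neither was the chromosome 4 region. The chromosome 11 region was not tested there or at either q limit. The only peak of DMSO replicate 1 in it was 111 bp wide, with a −log10 q of 3.68. With the mean −log10 q limma called 3 split regions, all lower after Tm, without the chromosome 4 or 11 region. The mean falls where a library lists an added weak peak, so it depends on the number of peaks, which the rule used. Among the 3 was the chromosome 16 region at 4852601 to 4853116, split in both Tm libraries only. Without DMSO replicate 1 or narrow peaks the chromosome 4 region stayed past the threshold (limma adjusted p = 0.00328 and 0.00221) but was no longer split. Limma called 0 split regions with log2 fold (82 at an unadjusted p under 0.05) and 0 with a single prior spread (109). Over all common regions limma called 10 at a −log10 q of at least 10, 5 to 30 without 1 library, 0 with log2 fold (2850 unadjusted) and 0 with a single prior spread (2821 unadjusted). The cause of these moves was not tested. The share of gaps at or over the width limit moved by less than the replicate spread at 130, 140, 160 and 170 bp, alternatives chosen after seeing the data, but the order of the libraries changed with the limit. With the replicate block, limma called 4 split regions and 35 common regions. Deviations of equal replicate numbers from their group means correlated at 0.0111 across common regions, so no shared deviation was seen in the ranks. This does not show whether libraries of equal number were handled together. The weaker peak beside a gap had a median of 13 reads, and the part of depth in the split counts was not tested.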
